A study of Mus musculus with 4 samples.

Results

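The 45 potassium and HCN channel genes described here were taken by exact gene name from a deposited table of 42458 rows of read counts, and all 45 were found. They code for voltage-gated, two-pore and calcium-activated potassium channels, inward rectifiers other than the G protein-gated ones, some of their partner subunits, and the hyperpolarization-activated HCN channels. They were measured in spinal cord cells of 4 C57BL6 mice, all injected with AAV2-CAG-tdT, a virus that codes for the red fluorescent protein tdTomato under the CAG promoter, which is active in many cell types. Per the labels, the virus was placed in a brain ventricle, live fluorescent cells from around the central canal were sorted by flow cytometry, and each library was made from 50 such cells of 1 mouse. The aim was to collect neurons that contact the cerebrospinal fluid (CSF-cNs). The 4 libraries form 1 group with no control group, so levels and the spread between mice can be described. Lists of 4 values are for mice 1, 2, 3 and 4 in this order.

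Potassium channels let potassium leave the cell and so hold the membrane at a negative voltage, end action potentials and set how readily a cell fires. Two-pore channels conduct at rest, voltage-gated channels open on depolarization, and inward rectifiers pass current more readily into the cell than out of it. HCN channels open on hyperpolarization and carry a depolarizing cation current. In the central nervous system most families are studied in neurons, but microglia and other glia also carry potassium channels, among them the two-pore channel THIK1 in microglia and the inward rectifier Kir4.1 in astrocytes and oligodendrocytes.

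The transgene and the markers of the labelled cell type differed widely between libraries. Levels are given as CPM, the counts in a library scaled to 1000000. Counts of the AAV2.CAG.tdT row were 5, 58, 13533 and 153379, and the 8 CSF-cN markers summed to 20.3, 12.9, 942 and 846 CPM. Both were low in mice 1 and 2. The 10 microglia markers were at 10 CPM or more in every library and summed to 54172, 60228, 35687 and 51751 CPM. The 10 oligodendrocyte markers summed to 15056, 238, 19273 and 459 CPM, high in mice 1 and 3. The 10 neuronal markers, led by Snap25 and Uchl1, summed to 129, 87.7, 1072 and 393 CPM. The 10 astrocyte markers summed to 1252, 161, 1349 and 301 CPM. Aldoc and S100b led in mice 1 and 3, Slc1a3, at 115, 122, 52.2 and 155 CPM, led in mice 2 and 4, and Slc1a2 stayed between 0 and 0.29 CPM. Summed levels ranged from 1.72 to 75.4 CPM for ependymal, 0 to 10.4 CPM for oligodendrocyte precursor, 12.2 to 25.6 CPM for endothelial, 0.0116 to 2.79 CPM for mural, 34.8 to 67.2 CPM for perivascular macrophage and 0 to 0.259 CPM for T cell markers. Total counts per library were 83007030 to 115479640, at which a count of 0 allows up to 0.0278 to 0.0348 CPM (3 counts in a library). In such bulk samples, fewer cells of a type and less RNA per cell cannot be told apart.

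The channel genes fell into sets by the libraries they stood in, and the promoter of the member with the highest length-scaled level of each of 3 sets is shown first: Kcnk13 for genes seen in all libraries, Kcnip4 for genes seen in mice 3 and 4, and Hcn2 for genes seen in mice 1 and 3. Each is the 250 bases before and 50 after the first start that RefSeq lists on GRCm38.p6, at chr12:99964249-99964548 (plus strand), chr5:49285610-49285909 (minus strand) and chr10:79716384-79716683 (plus strand), printed 5′ to 3′ on the gene's strand. The Kcnip4 window lies at a start inside the longer gene span of the GENCODE annotation. Capitals mark GAGGAA, the core of sites of the myeloid factor PU.1, and AGATAA, a core read by GATA factors, each searched on both strands.
Kcnk13: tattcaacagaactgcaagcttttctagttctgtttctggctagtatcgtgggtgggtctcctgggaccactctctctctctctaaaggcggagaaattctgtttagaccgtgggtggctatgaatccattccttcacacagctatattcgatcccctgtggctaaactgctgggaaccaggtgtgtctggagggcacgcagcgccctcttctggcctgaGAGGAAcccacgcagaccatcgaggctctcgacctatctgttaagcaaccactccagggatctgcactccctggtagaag
Kcnip4: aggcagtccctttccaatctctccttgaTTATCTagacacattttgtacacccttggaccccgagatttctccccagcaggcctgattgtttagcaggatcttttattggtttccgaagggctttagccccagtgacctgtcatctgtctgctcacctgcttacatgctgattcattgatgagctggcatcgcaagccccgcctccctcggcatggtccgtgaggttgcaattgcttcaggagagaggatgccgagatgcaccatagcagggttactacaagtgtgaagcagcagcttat
Hcn2: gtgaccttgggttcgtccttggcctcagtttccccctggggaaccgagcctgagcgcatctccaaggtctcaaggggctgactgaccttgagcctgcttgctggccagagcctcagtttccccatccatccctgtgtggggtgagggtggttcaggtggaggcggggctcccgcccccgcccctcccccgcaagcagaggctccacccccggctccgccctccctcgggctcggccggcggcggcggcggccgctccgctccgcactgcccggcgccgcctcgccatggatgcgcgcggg
The Kcnk13 window held GAGGAA, starting at position -30 counted from the start site. The Kcnip4 window held the reverse complement of AGATAA, starting at position -222, and the Hcn2 window held neither. RefSeq windows were found for 34 of the 45 members. Of these, 11 held GAGGAA and 1 held AGATAA, against 28.3% and 11.2% of all 32851 windows of this length. These letters are a description of the windows and not sites of binding.

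Of the 45 members, 13 reached 10 CPM in at least 1 library and 32 did not. Members at 10 CPM or more numbered 9, 7, 11 and 9, and members without a count 20, 22, 8 and 11, so mice 1 and 2 had more members without a count. For the test, a gene needed at least 10 counts in total, which 38 members had. Of these 38, 14, 16, 4 and 6 had no count in a library, against 18.9%, 18.4%, 10.3% and 14.2% of all genes that passed this filter. edgeR's quasi-likelihood test of each gene's level against 10 CPM, with Benjamini-Hochberg adjustment over 18522 genes and a threshold of 0.05, called 6 of the 38 above 10 CPM. Over all tested genes, 36.7% were called above, so a smaller share of the channel genes was called than of genes at large. The median log2 level relative to 10 CPM was -2.61 over the tested members and -0.07 over all tested genes. The 6 called members were Kcnk13, Kcnk6, Kcnip3, Kcnd1, Kcnma1 and Kcnj2, the same 6 that stood at 10 CPM or more in all 4 libraries, as did 36.5% of tested genes. limma-voom called the same 6 above, where it called 35.9% of all genes, and DESeq2 called 5 of them, without Kcnj2, where it called 34%. Among the other members that reached 10 CPM, Kcnip4 and Kcnq3 did so in mice 3 and 4 only (2.15% of tested genes) and Hcn2 in mice 1 and 3 only (2.3%). Kcnj10 did so in mice 1, 2 and 3 (1.48%), and Kcnk12 in mouse 1 only (1.5%), Kcnab1 in mouse 3 only (2.46%) and Kcnt2 in mouse 4 only (1.82%). Mice 1 and 2, whose libraries had few counts of the transgene, were also left out together. On the remaining mice 3 and 4 (n = 2), edgeR again called 6, with Kcnip4 (adjusted p = 2.5e-04) and without Kcnj2 (adjusted p = 0.20). Kcnip4 stood at 72.2 and 88.9 CPM in these libraries, so its call follows from those values. Of the 32 members under 10 CPM in every library, 25 were among the 38 tested, against 41.4% of tested genes.

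edgeR called 0 members below 10 CPM and 1 at an unadjusted p under 0.05 (Kcnip1). Over all genes it called 0.669% below, though 41.4% of tested genes stood under 10 CPM in every library. Kcnab2, at 1.33 to 1.80 CPM in all 4 libraries, had an unadjusted edgeR p of 0.087. The test thus seldom called a gene below, and its 0 does not show that no member was below 10 CPM. limma-voom called 19 members below, where it called 33.3% of all genes, and DESeq2 called 5, where it called 11.1%, and gave no adjusted p for 12. The number of members below 10 CPM therefore depended on the tool.

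**Figure D1:**
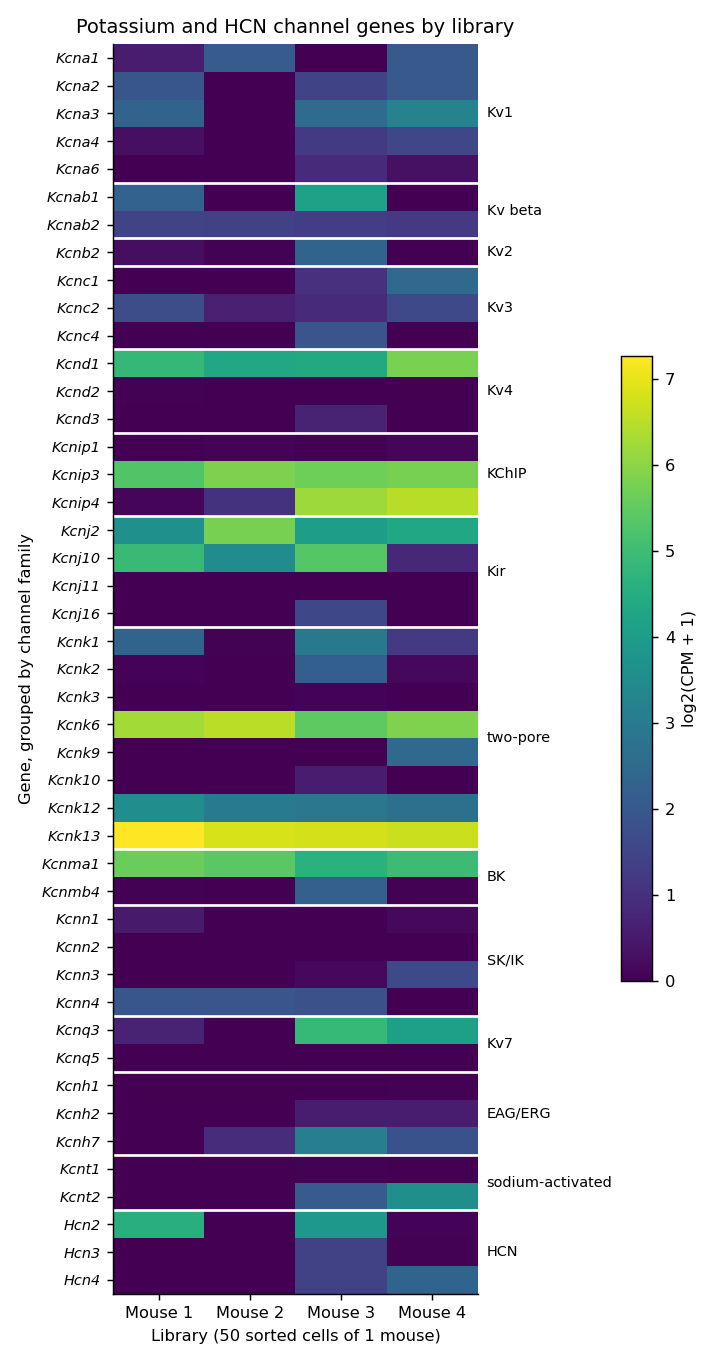
Levels of the 45 channel genes, as log2(CPM + 1), by library (columns, mice 1 to 4) and channel family (row blocks). Kcnk13, Kcnk6, Kcnip3, Kcnd1, Kcnma1 and Kcnj2 are bright in all 4 libraries, Kcnip4 and Kcnq3 in mice 3 and 4, and Hcn2 in mice 1 and 3.

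The two-pore family held the highest level of any member. Kcnk13 (ENSMUSG00000045404.16, chromosome 12 from 99964499 to 100062682, plus strand of GRCm38) codes for THIK1, the leak channel of microglia in mice. It had 16482, 10522, 9435 and 9064 counts, or 153, 113, 109 and 101 CPM, with mouse 1 the highest and the other 3 close together. Its mean was 119 ± 23 CPM (SD, n = 4), 3.57 above 10 CPM on the log2 scale (SE 0.10, edgeR adjusted p = 3.8e-07). Each SE of a log2 level was computed back from the test, as the size of the level over the square root of the F statistic. Such an SE is not a direct measure of the spread between mice. Kcnk6 (ENSMUSG00000046410.10, chromosome 7 from 29221926 to 29232515, minus strand) codes for TWIK2, a potassium efflux channel of macrophages. It stood at 75.3, 90.9, 42.8 and 57.3 CPM, higher in mice 1 and 2 than in mice 3 and 4, and 2.74 above 10 CPM on the log2 scale (SE 0.15, adjusted p = 9.8e-06).

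Kcnk12, which codes for THIK2, the close relative of THIK1, was at 10.8, 7.11, 6.36 and 5.40 CPM. Its log2 level of -0.43 relative to 10 CPM did not pass the test (SE 0.53, edgeR adjusted p = 0.51). Kcnk13 and Kcnk12 stood in a similar ratio in each mouse. The log2 ratio of Kcnk13 over Kcnk12, each as CPM per kb of exon plus 1, was 2.94, 3.01, 3.10 and 3.16. The added 1 lowers this ratio: its mean was 3.05, against 3.37 with 0.01 added in place of 1. Of the other two-pore members, Kcnk1, the TWIK1 gene, was at 4.02, 0.0214, 6.61 and 1.36 CPM, lowest in mouse 2. Kcnk9, the TASK3 gene, had 413 counts in mouse 4 (4.60 CPM) and none elsewhere. Kcnk2, the mechanosensitive TREK1 gene, reached 3.49 CPM in mouse 3 and at most 0.111 CPM in the others, and Kcnk10 and Kcnk3 had counts in mouse 3 alone (0.476 and 0.0464 CPM).

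Kv4 pore subunits form A-type voltage-gated channels, with KChIP and DPP proteins as partners. The only abundant pore gene was Kcnd1 (chromosome X from 7822289 to 7838280, plus strand), at 27.4, 19.3, 20.3 and 54.9 CPM, with mouse 4 above the other 3. Its log2 level over 10 CPM was 1.61 (SE 0.27, edgeR adjusted p = 0.0028). The other Kv4 pore genes were almost without counts: Kcnd2 had 4, 0, 0 and 1 counts, and Kcnd3 had 56 counts in mouse 3 (0.650 CPM) and none elsewhere.

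Of the KChIP genes, Kcnip3, whose product is also known as the calcium-dependent transcriptional repressor DREAM, was at 38.1, 56.3, 49.6 and 53.2 CPM. Its log2 level over 10 CPM was 2.30 (SE 0.14, edgeR adjusted p = 1.3e-05). Kcnip4 (ENSMUSG00000029088.16, chromosome 5 from 48389502 to 49524907, minus strand) had 8, 101, 6225 and 7977 counts, or 0.0740, 1.08, 72.2 and 88.9 CPM. The exact 95% Clopper-Pearson interval in mouse 1 was 0.0320 to 0.146 CPM, and in mouse 3 70.4 to 74.0 CPM, both for counting error only. Mice 3 and 4 thus stood far above mice 1 and 2, and with this spread the mean of 40.6 ± 46.7 CPM (SD, n = 4) did not pass the test against 10 CPM (log2 level 2.02, SE 0.93, edgeR adjusted p = 0.15). Without mouse 1 Kcnip4 was called (log2 2.47, adjusted p = 0.046). Kcnip1 had 0, 4, 0 and 6 counts. The DPP partner genes Dpp6 (0, 0.0107, 23 and 8.66 CPM) and Dpp10 (0, 0, 8.21 and 20.9 CPM), which are not among the 45, also had their counts almost only in mice 3 and 4, while Kcnd1 and Kcnip3 were seen in every library.

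The M-current gene Kcnq3 codes for a Kv7 subunit that damps repetitive firing. It was at 0.611, 0, 28.4 and 16.1 CPM, again high in mice 3 and 4, with a mean of 11.3 ± 13.6 CPM (SD, n = 4) near the tested level (log2 0.17, edgeR adjusted p = 0.92). Kcnq5 had 1 count in each of mice 2 and 3 and none in the others. Kcnt2, a sodium-activated channel gene, was at 0, 0, 3.26 and 11.2 CPM, while its relative Kcnt1 had 3 counts in mouse 3 alone. Of the EAG and ERG genes, Kcnh7 was at 0, 0.899, 7.69 and 2.57 CPM, and Kcnh2, the gene of the cardiac repolarizing channel hERG, at 0, 0.0107, 0.464 and 0.468 CPM. Exons of Kcnh7 overlap those of Gca on the other strand over 696 bases, and these libraries do not keep the strand, so reads of that stretch cannot be told apart. Kcnh1 had 3 counts in mouse 4.

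Genes of the Kv1, Kv2 and Kv3 families were low. Kcna3, the Kv1 gene of T cells and activated microglia, was at 3.92, 0.0107, 4.86 and 8.58 CPM. Mouse 2 held 1 count of it. T cell markers were at or near 0: Cd3e, Cd3g, Trac and Cd2 had no count in any library. The axonal Kv1 gene Kcna1 was at 0.472, 3.30, 0 and 3.09 CPM, high in mice 2 and 4. Of the other Kv1 genes, Kcna2 and Kcna4 stayed at or under 3.09 CPM and Kcna6 under 1 CPM. The Kv3 genes, whose channels serve fast-spiking neurons, were at most 4.57 CPM (Kcnc1, at 0, 0.0107, 1.03 and 4.57 CPM); Kcnc4 had 237 counts in mouse 3 (2.75 CPM) and none elsewhere, and Kcnc2 stayed between 0.599 and 2.28 CPM. The Kv2 gene Kcnb2 was at 0.204, 0.0214, 4.07 and 0 CPM.

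The Kv beta genes code for cytoplasmic partners of Kv1 channels. Kcnab1 was at 3.87, 0.0107, 17.0 and 0.0111 CPM, high in mice 1 and 3 and at 1 count each in mice 2 and 4. The antisense gene A330015K06Rik, which overlaps 201 bases of its exons, had 269, 0, 767 and 0 counts, so reads of that stretch may belong to either gene. Exons of Kcna6, Kcnip4, Kcnk1, Kcnk2, Kcnn1 and Kcnq5 also overlap genes on the other strand in the annotation, and those of Kcnab2 a gene on its own strand, which leaves the same doubt about the shared bases. Kcnab2 differed little between mice, at 1.80, 1.67, 1.47 and 1.33 CPM.

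Among the inward rectifiers, Kcnj2, which codes for Kir2.1, was at 11.6, 53.4, 15.8 and 18.9 CPM. Mouse 2 stood well above the other 3. Its level was called above 10 CPM (log2 1.32, SE 0.36, edgeR adjusted p = 0.027), but this rested on few libraries: without mouse 2 the log2 level was 0.64 (adjusted p = 0.27), without mouse 4 the adjusted p was 0.060, and DESeq2 gave 0.060. Kcnj10, the Kir4.1 gene, was at 28.8, 10.3, 39.6 and 0.769 CPM, highest in mice 1 and 3 and lowest in mouse 4. It was not called (log2 0.99, SE 0.66, adjusted p = 0.28), though it was without mouse 4 (log2 1.37, adjusted p = 0.040). Its partner Kcnj16, which codes for Kir5.1, had 171 counts in mouse 3 (1.98 CPM) and none elsewhere, and Kcnj11, the pore gene of the ATP-sensitive channel, had no count in any library.

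The large-conductance calcium-activated channel gene Kcnma1 (chromosome 14 from 23289431 to 24014491, minus strand) was at 47.6, 41.2, 24.1 and 30.5 CPM, higher in mice 1 and 2. Its log2 level over 10 CPM was 1.84 (SE 0.19, edgeR adjusted p = 2.5e-04). Its neuronal beta subunit gene Kcnmb4 had 3, 0, 320 and 3 counts, or 3.71 CPM in mouse 3. Exons of Kcnmb4 overlap the antisense genes Kcnmb4os1 and Kcnmb4os2, which had no counts, as had Pklr, which overlaps Hcn3. Another beta subunit gene, Kcnmb2, not among the 45, was at 0.00926, 0.0214, 27.0 and 38.2 CPM. The pore gene was thus seen in every library, and Kcnmb2 almost only in mice 3 and 4. The intermediate-conductance gene Kcnn4, known from immune cells, was at 2.85, 2.74, 2.49 and 0 CPM. Of the small-conductance genes, Kcnn3 reached 2.03 CPM in mouse 4 and 0.104 CPM in mouse 3, Kcnn1 0.444 CPM in mouse 1, and Kcnn2 had no count.

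Among the HCN genes, Hcn2 (ENSMUSG00000020331.9, chromosome 10 from 79716634 to 79736108, plus strand) had 2464, 0, 1174 and 4 counts, or 22.8, 0, 13.6 and 0.0446 CPM. It was high in mice 1 and 3 and nearly absent from the other libraries (log2 level -0.13, edgeR adjusted p = 0.94). limma-voom, which models log values, gave a log2 level of -4.14 (adjusted p = 0.12). Pex5l, whose product is an HCN partner protein and which is not among the 45, was at 21.4, 0.407, 28.5 and 0.0557 CPM, also high in mice 1 and 3. Hcn4, the pacemaker channel gene of the heart, was at 0, 0, 1.62 and 4.10 CPM, and Hcn3 at 0, 0, 1.64 and 0.0223 CPM.

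**Figure D2:**
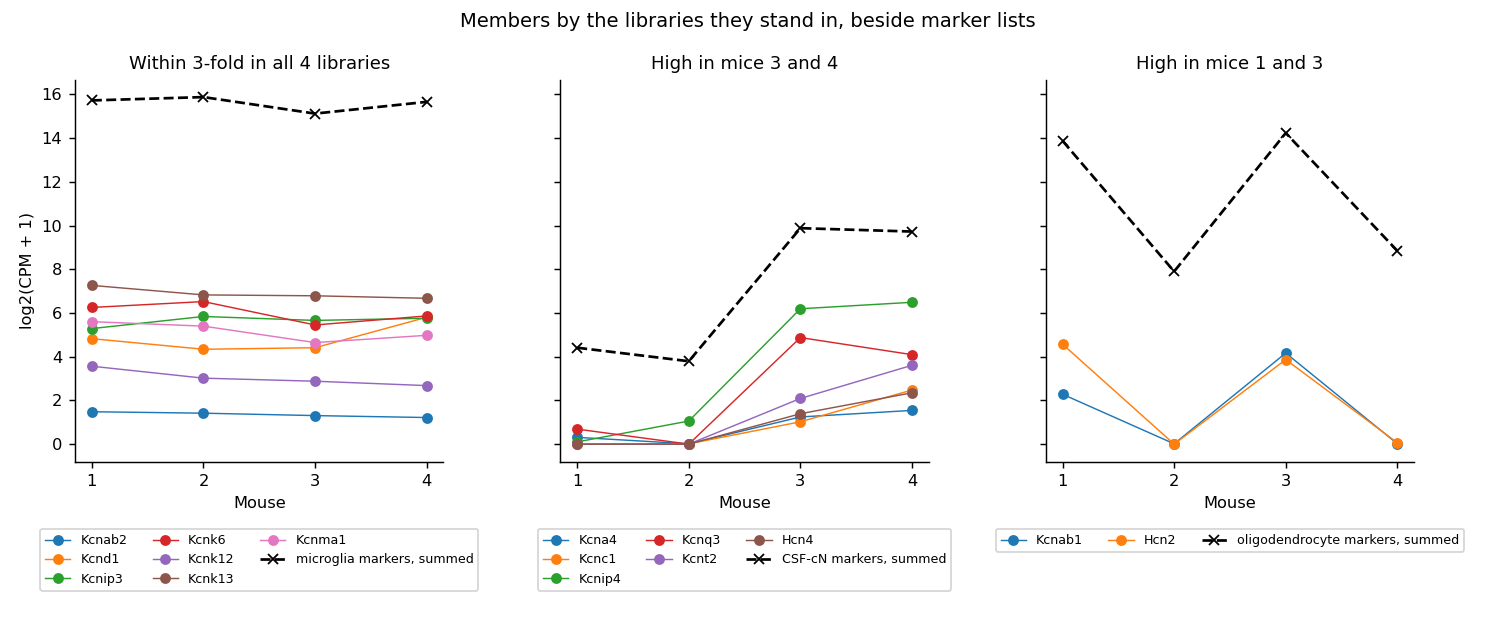
Levels as log2(CPM + 1) by mouse for members of 3 sets (coloured points, joined for each gene) beside the summed level of a marker list (crosses, dashed). The sets are members within 3-fold across libraries with microglia markers, members high in mice 3 and 4 with CSF-cN markers, and members high in mice 1 and 3 with oligodendrocyte markers.

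The members were sorted by the libraries they stood in, with a rule chosen after the values were seen and given without a test. A member was called high in a pair of libraries when both were at 1 CPM or more and at least 3 times each of the others. By this rule 6 members were high in mice 3 and 4, namely Kcnip4, Kcnq3, Kcnt2, Hcn4, Kcnc1 and Kcna4, against 4.84% of all tested genes. CSF-cN and neuronal markers were also higher in these libraries. So were the sums of ependymal markers (1.72, 3.40, 16.9 and 75.4 CPM) and of oligodendrocyte precursor markers (0.0185, 0, 10.4 and 3.73 CPM). The precursor sum came mostly from Lhfpl3 (0, 0, 9.87 and 3.69 CPM), while Pdgfra, Gpr17 and Neu4 had no count in any library. The part of these markers in the members' levels was not tested. High in mice 1 and 3 were 2 members, Hcn2 and Kcnab1, against 4.08% of tested genes. Kcna1 alone was high in mice 2 and 4 (1.29% of tested genes). Oligodendrocyte markers were highest in mice 1 and 3 as well, and their part was not tested. In 7 members the highest library was less than 3 times the lowest, namely Kcnk13, Kcnk6, Kcnip3, Kcnma1, Kcnd1, Kcnk12 and Kcnab2, against 37.6% of tested genes. Microglia markers likewise differed by less than 3-fold in sum, and their part was not tested. A single library, 3 or more times above each other one, held 6 members in mouse 3 (Kcnb2, Kcnc4, Kcnj16, Kcnk2, Kcnmb4 and Hcn3; 5.11% of tested genes) and 2 in mouse 4 (Kcnk9 and Kcnn3; 3.49%). Under 1 CPM in every library were 13 members, 7 of them among those not tested. The other 6, of 38 tested members, stand beside 14.5% of tested genes. A further 8 members fell under none of these rules (21.7%).

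Among genes at 10 CPM or more in all 4 libraries, Kcnip3 and Kcnk13 varied little between mice and Kcnj2 much. The SD of log2(CPM + 1) was 0.24 for Kcnip3 and 0.26 for Kcnk13, against a median of 0.41 over all 6759 such genes. It was 0.43 for Kcnma1 and 0.47 for Kcnk6, close to that median. Kcnd1 (0.67) and Kcnj2 (0.92) were above it, Kcnj2 at the 95.8th percentile.

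Levels of different genes were compared per kb of exon, since longer transcripts give more reads in whole-transcript libraries. On this scale Kcnk13 led in each of the 4 libraries, at 49.0, 36.2, 35.2 and 32.5 CPM per kb, which was at the 91.8th percentile of all tested genes by its mean of 38.2 ± 7.38 CPM per kb (SD, n = 4). Kcnk6 followed with a mean of 16 ± 5.06, Kcnip3 with 13.9 ± 2.25 and Kcnip4 with 11.2 ± 12.9 CPM per kb. The lowest Kcnk13 value was above the highest of any other member, 24.5 CPM per kb for Kcnip4 in mouse 4, whereas Kcnk6, Kcnip3 and Kcnip4 overlapped. Kcnd1 (5.76 ± 3.16), Kcnj2 (4.58 ± 3.53), Kcnk12 (3.77 ± 1.21), Kcnj10 (3.67 ± 3.25) and Hcn2 (2.85 ± 3.49 CPM per kb) came next, and neighbours in this order overlapped in their ranges. Kcnma1, which is long, fell to 2.11 ± 0.62 CPM per kb, below Kcna3 at 2.28 ± 1.85.

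**Figure D3:**
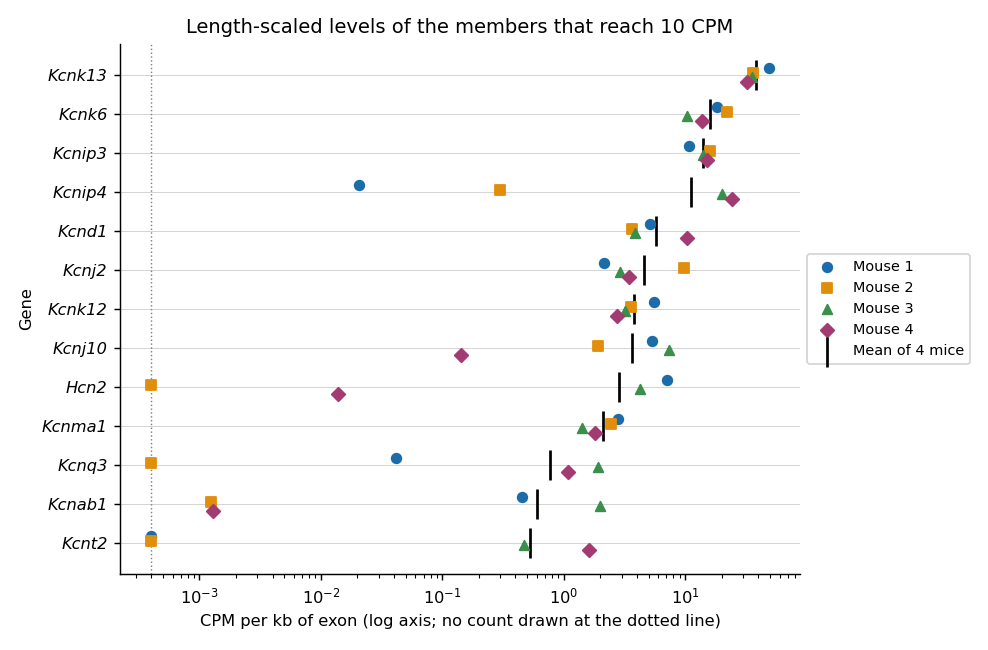
CPM per kb of exon (log axis) of the 13 members that reach 10 CPM in a library, one symbol per mouse, with the mean of 4 mice as a black bar. Kcnk13 is highest in every library, between 32.5 and 49.0 CPM per kb, and Kcnip4, Hcn2, Kcnq3, Kcnab1 and Kcnt2 span orders of magnitude.

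Summed over all 45 members, the level was similar in the 4 libraries, at 112, 97.4, 119 and 116 CPM per kb, but its makeup was not. Two-pore genes made up 66.4%, 63.4%, 44.2% and 43.1% of the sum and KChIP genes 9.59%, 16.6%, 28.6% and 34.0%. Two-pore genes took larger shares in mice 1 and 2 and KChIP genes in mice 3 and 4. HCN genes made up 6.37% and 4.15% in mice 1 and 3, and 0% and 0.594% in mice 2 and 4. Kv4 genes ranged from 3.29% to 8.95% and inward rectifiers from 3.11% to 12%.

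**Figure D4:**
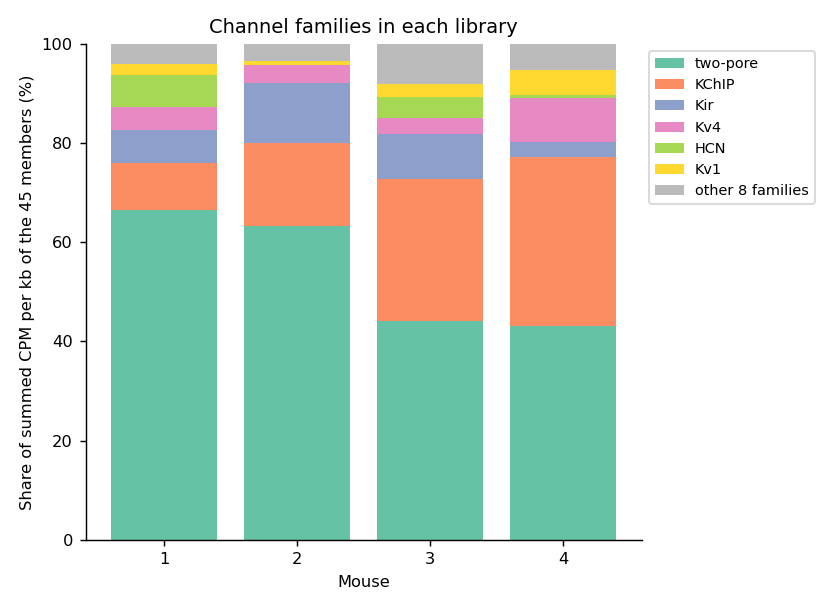
Share of the summed CPM per kb of the 45 members taken by each channel family (stacked bars, percent), by mouse. Two-pore genes fill 66.4% and 63.4% of the bars of mice 1 and 2 and 44.2% and 43.1% of those of mice 3 and 4.

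Related channel genes were compared within each mouse as the log2 ratio of CPM per kb, with 1 added to each. Each mean ratio was set against 0 with a two-sided exact permutation test that flips the signs of the 4 mice. It has 16 sign patterns, so the smallest p it can give, 2 in 16 or 0.13 rounded, is above 0.05. Adjustment was by Benjamini-Hochberg over the 6 pairs. Kcnk13 exceeded Kcnk12 in 4 of 4 mice by 3.05 ± 0.09 (SD, n = 4, exact p = 0.13, adjusted 0.15), the pair with the smallest spread when 1 is added. Kcnk6 exceeded Kcnk1 in 4 of 4 mice by 3.00 ± 1.23 (exact p = 0.13, adjusted 0.15), from 1.51 in mouse 3 to 4.50 in mouse 2. Kcnd1 exceeded Kcnd2 by 2.65 ± 0.60 and Kcnj10 exceeded Kcnj16 by 1.71 ± 1.13, both in 4 of 4 mice (exact p = 0.13, adjusted 0.15). The Kcnmb4 over Kcnma1 ratio was -1.34 ± 0.79, lower in 4 of 4 mice (exact p = 0.13, adjusted 0.15). It was -0.19 in mouse 3. Kcnd2, Kcnj16 and Kcnmb4 were nearly or wholly without counts in several libraries, where the sign could hardly turn and the added 1 sets the size of the ratio. With 0.01 added in place of 1, the mean ratio was 8.77 for Kcnd1 over Kcnd2, 6.10 for Kcnj10 over Kcnj16 and -5.51 for Kcnmb4 over Kcnma1. Hcn2 over Hcn3 was 1.24 ± 1.49 (exact p = 0.25, adjusted 0.25), with no count of either in mouse 2.

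**Figure D5:**
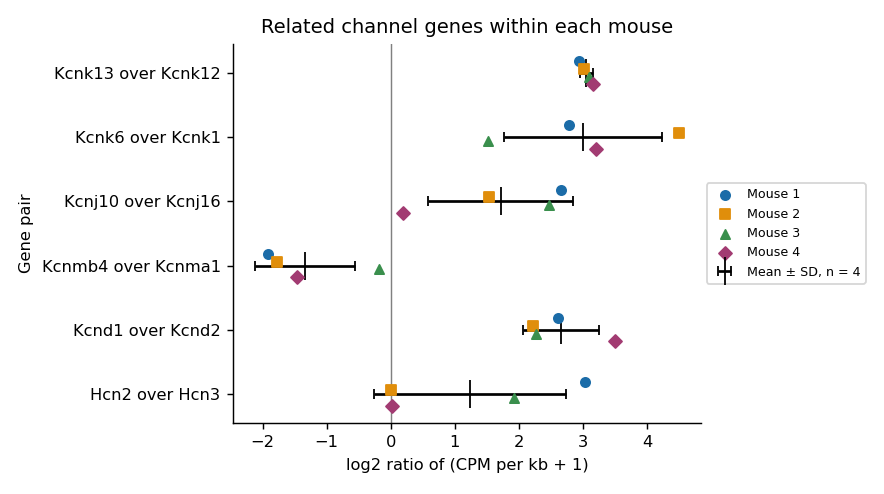
The log2 ratio of (CPM per kb + 1) for 6 pairs of related channel genes, one symbol per mouse, with the mean ± SD (black, n = 4). The Kcnk13 over Kcnk12 ratios lie between 2.94 and 3.16, while those of the other pairs are more spread out.

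The rest of the family was read from a list of 62 further channel subunit and partner genes, of which 61 were in the table and 31 had enough counts for the test. edgeR called 1 of these above 10 CPM, against 36.7% of all tested genes, and 0 below, against 0.669%. At an unadjusted p under 0.05, edgeR had 1 below. limma-voom called 23 below, where it called 33.3% of all genes. DESeq2 called 4 below, where it called 11.1%, and gave no adjusted p for 14. The gene called above was Kcnh6 (chromosome 11 from 106008124 to 106034549, plus strand), an ERG-type channel gene. It was at 163, 84.4, 67.7 and 73.9 CPM, highest in mouse 1 and close together in the others (log2 level 3.28, SE 0.16, edgeR adjusted p = 5.0e-06). Per kb it had 27.4 ± 12.6 CPM (SD, n = 4), next to the 38.2 ± 7.38 CPM per kb of Kcnk13. Among the rest, 54 genes stayed under 10 CPM in every library. Kcnmb2, Dpp6 and Dpp10 reached it with their highest values in mice 3 and 4, as did the G protein-gated rectifier gene Kcnj5 (0, 0, 1.11 and 11.0 CPM), and Pex5l reached it in mice 1 and 3. Without mice 1 and 2 (n = 2), Kcnmb2 was also called, which follows from its 27.0 and 38.2 CPM in mice 3 and 4.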

How the data were processed

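Per the labels' protocols, the RNA was amplified by SMART-Seq v4 (11 PCR cycles) before Nextera XT library preparation. Such libraries span whole transcripts without strand or molecular identifiers, so intervals and limits at a count of 0 cover counting error only. The deposited counts are whole numbers for each gene, and each mouse has 2 columns. The build mm10 and the tools STAR, RSEM, DESeq2, FastQC and Trim Galore are named, per the submitters' processing notes; their versions and roles, the annotation and any rounding are not given in the sources. The 2 columns of a mouse (Spearman 0.9976 to 0.9985 over genes with at least 10 counts) were treated as runs of 1 library and summed. Over the same genes, the mean chi-square between the columns was 2.19, 1.98, 2.03 and 1.94 per gene, where counting error alone gives about 1. By this mean over genes, which a few genes can raise, the columns differed by more than counting error, and the cause was not tested. Members with at least 100 counts in a library differed between runs by a median of 1.04-fold, at most 1.73-fold (Kcna4, mouse 3). The deposited log2 values equal log2 of these sums over a size factor, plus 1, within 0.01 for 100% of matched genes, and were not used further.

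CPM used edgeR's TMM normalization. Positions and merged exon lengths came from GENCODE M21 on GRCm38, the assembly of mm10, with a model for all 45 members. The level test was an intercept-only quasi-likelihood fit in edgeR 4.0.16 (R 4.3.3) with an offset that puts an intercept of 0 at 10 CPM. The tool's test function takes no single-column design, so its F test, with the Poisson bound, was computed from the fitted deviances. It was tried on simulated data in which each gene had the same level in all libraries and all genes shared 1 setting of spread. Genes high in some libraries only were not simulated, and the outcome is not reported here. limma-voom (limma 3.58.1) and DESeq2 1.42.0 were alternatives. Python 3.11.15 with scipy 1.17.1 was used for the rest. p-values rest on variation between these 4 mice, each 1 library. In the level tests this variation is estimated with information shared across genes, so those p-values do not measure a gene's own spread alone.

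The members, lists, pairs and alternatives were chosen with earlier results of these data known. All 45 members could be named: values per mouse for those at 10 CPM or more in a library, then the 2 highest others of each family, and genes of the further list at 10 CPM or more in a library. Some genes that this rule takes are not reported here.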

Additional observations from a re-analysis of the deposited data

How the results depend on the processing

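The count of 6 members called above 10 CPM stayed between 4 and 8 under all alternatives run: 4 at a level of 20 CPM, 8 at 5 CPM, 5 with DESeq2, 5 to 7 without any single mouse, and 6 in all the others. Kcnk13, Kcnk6, Kcnip3 and Kcnma1 were called in each of them, Kcnd1 in all but the level of 20 CPM. The count below 10 CPM moved from 0 to 5 with no filter on counts. These 5 were Kcnd2, Kcnh1, Kcnk3, Kcnq5 and Kcnt1, which the filter had left untested. The count moved to 5 with DESeq2 and 19 with limma-voom, and the cause of the change between tools was not tested. The count of further channel genes called above moved from 1 to 2 without mice 1 and 2 together. The number of members at 10 CPM or more in all libraries was 6, with 7 at 5 CPM and 4 at 20 CPM. No ratio of a pair changed sign, but those with genes at or near 0 counts grew with a smaller added value: with 0.1 and 0.01 in place of 1, Kcnd1 over Kcnd2 was 5.71 and 8.77, Kcnj10 over Kcnj16 3.75 and 6.10, Kcnmb4 over Kcnma1 -3.46 and -5.51, Hcn2 over Hcn3 2.36 and 3.38, and Kcnk6 over Kcnk1 4.24 and 4.93.

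Log2 levels of members that were not called changed sign as follows. With limma-voom, which models log values, Kcnip4 was at -1.47 and Kcnq3 at -3.28; levels below 10 CPM fell further without a change of sign, to -4.14 for Hcn2, -4.75 for Kcnab1 and -5.85 for Kcnt2. Relative to 5 CPM, Kcnab1 was at 0.062, Kcnk12 at 0.57 and Hcn2 at 0.87, and relative to 20 CPM, Kcnj10 was at -0.0094 and Kcnq3 at -0.83, as a lower or higher level of comparison brings about. With single mice left out, Kcnq3 ranged from -0.86 (without mouse 3) to 0.60 (without mouse 1), and was at -0.09 without mouse 4. Hcn2 ranged from -1.10 (without mouse 1) to 0.29 (without mouse 2), and was at 0.26 without mouse 4. In all, 145 of 167 alternative values of 13 members kept direction and call. No paired comparison between groups was possible because there is a single group. Depth limits levels under 0.0278 to 0.0348 CPM in a library.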
